A study of Homo sapiens with 8 samples.

Results

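The SLAM family receptors are a group of surface proteins of blood cells. The 8 genes SLAMF8, CD48, CD244, LY9, CD84, SLAMF1, SLAMF6 and SLAMF7 were taken by name from the 22653 entries listed in at least 1 of 8 RNA-seq libraries. SLAMF8 was picked because its measured level differed between the 2 cell lines, and the other members were set beside it. All 8 were listed in at least 1 library. All libraries came from U937, a human monocytic line, with SLC19A1, which encodes the reduced folate carrier, knocked out (SLC19A1-/-). The SLC7A1 line carried a tet-inducible, Flag-tagged SLC7A1 and the SLC7A2 line a tet-inducible, Flag-tagged SLC7A2; both genes encode cationic amino acid transporters. The 4 groups were the SLC7A1 line without doxycycline (dox), the SLC7A1 line with dox at 1 µg/mL for 24 h, and the SLC7A2 line in the same 2 states, with 2 libraries each. The control libraries thus carried the knockout and an uninduced construct, and no dox-treated line without a construct was among the samples, so the drug and the transporters cannot be told apart. Whether libraries of a group came from separate cultures, and whether each line is 1 clone, was not stated in the labels, so a p-value here reflects no more than the variation among these samples, and that may be technical.

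SLAM family receptors are type I membrane proteins of the immunoglobulin superfamily, related to CD2. Most bind a copy of themselves on the neighbouring cell, while CD48, which is held by a lipid anchor, is the ligand of CD244. Most members carry switch motifs in the cytoplasmic tail that bind the adaptor SAP, encoded by SH2D1A, or its relatives, and in their absence phosphatases such as SHP-1. SLAMF8 and SLAMF9 have short tails without these motifs, and SLAMF8 is known as a myeloid receptor that lowers the output of the phagocyte NADPH oxidase.

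The genes lie together on chromosome 1 (GRCh38.p14). SLAMF8 spans 159826873 to 159837492, and the other 7 members fill a block of 378 kb that starts 648 kb further on. In order they are SLAMF6 at 160485036 to 160523255, CD84 at 160541098 to 160579496, SLAMF1 at 160608106 to 160647044 and CD48 at 160678746 to 160711822. SLAMF7 follows at 160739057 to 160754821, LY9 at 160796174 to 160828255 and CD244 at 160830160 to 160862887. SLAMF9, the second gene with a short tail, is not among the members and lies between SLAMF8 and the block at 159951492 to 159983984.

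The bases before the start of the 3 most abundant members are shown, because these 3 carry nearly all of the family's transcripts and follow 3 different patterns below. Each is the 250 bases before the RefSeq gene start, 5′ to 3′ on the strand of the gene, with matches to the searched motifs in capitals. They were read from RefSeq on GRCh38.p14: SLAMF8 at chr1:159826623-159826872 on the plus strand, CD48 at chr1:160711823-160712072 and CD244 at chr1:160862888-160863137 on the minus strand.
SLAMF8: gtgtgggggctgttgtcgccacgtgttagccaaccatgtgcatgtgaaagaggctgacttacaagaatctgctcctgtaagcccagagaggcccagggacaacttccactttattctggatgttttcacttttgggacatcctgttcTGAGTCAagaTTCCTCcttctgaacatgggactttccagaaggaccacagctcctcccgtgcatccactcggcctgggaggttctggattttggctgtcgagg
CD48: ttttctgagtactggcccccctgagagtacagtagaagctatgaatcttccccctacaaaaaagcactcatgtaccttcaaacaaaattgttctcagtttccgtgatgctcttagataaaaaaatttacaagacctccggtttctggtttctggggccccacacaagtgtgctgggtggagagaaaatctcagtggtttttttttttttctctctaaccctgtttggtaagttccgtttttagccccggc
CD244: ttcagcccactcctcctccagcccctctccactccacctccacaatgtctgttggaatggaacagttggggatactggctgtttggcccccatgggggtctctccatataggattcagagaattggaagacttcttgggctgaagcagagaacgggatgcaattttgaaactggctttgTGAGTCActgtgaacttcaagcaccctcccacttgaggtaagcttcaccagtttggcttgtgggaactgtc
In SLAMF8 the capitals mark an AP-1 match (TGANTCA) 103 bases and a PU.1 core (GAGGAA, here on the opposite strand) 93 bases before the start. In CD244 they mark an AP-1 match at 71 bases. Bases just after the start were found in a GENCODE transcript of the gene for SLAMF8 and CD48 but not for CD244. The CD244 start, and so this distance, is less certain. CD48 held none of the 3 motifs searched on both strands, the third being the ISRE core (GAAA, any 2 bases, GAAA), which SLAMF8 and CD244 also lacked. Of 35116 promoters of this length, 23.6% held the PU.1 core, 6.57% the AP-1 form and 3.02% the ISRE core. RefSeq sequences were at hand for 5 of the 8 members; of the other 2, SLAMF6 held a PU.1 core at 36 bases and SLAMF1 none of the 3 motifs. A match describes the letters only.

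Each library held between 17309132 and 18441833 expected counts. The floor of 3 counts therefore came to 0.163 to 0.173 CPM (the count scaled to the library total; counting error only). The construct entries followed the labels. In the dox-treated SLC7A1 line the tagged SLC7A1 reached 845 and 367 CPM, and elsewhere at most 0.264 CPM. In the dox-treated SLC7A2 line the tagged SLC7A2 reached 264 and 4947 CPM, without dox it stood at 0.563 and 9.65 CPM, and the SLC7A1 line had at most 0.0564 CPM. SLC19A1 transcripts stood at 40.9 to 59.0 TPM (a level scaled to gene length and library) in all 8 libraries, which does not test the protein. Both SLC7A2-line libraries numbered 2 stood apart: on the first principal component they scored 55.3 and 68.1, against -52.7 to -3.67 for the other 6. Values without both are given below where they move a result. Of 15 monocytic markers, all passed the filter on low counts, though MPO stayed at 0.21 to 0.47 TPM. Their summed level ran from 7904 to 17770 TPM, of which CTSG alone held 5069 to 12190 TPM. All 12 T cell markers stayed under 1 TPM, with CD3E, CD3G, CD28, CD7, TRAC and TRBC1 at 0, and IL7R alone passed the filter. Among B cell markers CD79A alone exceeded 1 TPM, at 20.57 to 34.05 TPM, and MS4A1, CR2 and BLK were at 0. Among NK cell markers NKG7 alone exceeded 1 TPM, at 638.9 to 731.1 TPM, and NCR1 was at 0.

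SLAMF8, the short-tailed member, was low in the SLC7A1 line and high in the SLC7A2 line. In the SLC7A1 line it stood at 0.58 and 0.90 TPM without dox and at 0.55 and 1.21 TPM with dox, from 15.3 to 40 expected counts a library. In the SLC7A2 line it stood at 6.73 and 30.5 TPM without dox and at 5.93 and 29.4 TPM with dox, from 185.6 to 1021 expected counts. The lines did not overlap, and within the SLC7A2 line the libraries numbered 2 stood far above those numbered 1 in both dox states.

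Over the 4 libraries of a line, SLAMF8 averaged 0.81 ± 0.31 TPM (SD, n = 4) in the SLC7A1 line and 18.1 ± 13.7 TPM (SD, n = 4) in the SLC7A2 line. The ratio of the means was 22.4-fold in TPM and 22.0-fold in CPM, and the lowest SLC7A2-line library still had 4.92-fold the CPM of the highest SLC7A1-line library. The fitted log2 difference between the lines was 4.38 ± 0.67 (SE), which ranked 36 among 17503 tested entries, and 6 among the 11567 with a symbol. SLAMF8 was chosen for this difference, so the values describe it and no test is attached.

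The size of the SLAMF8 gap depended on which libraries were set side by side. Between libraries numbered 1 the SLC7A2 line had 14.5-fold the CPM of the SLC7A1 line without dox and 11.2-fold with dox. Between libraries numbered 2 the ratios were 30.5-fold and 22.5-fold. Numbers do not pair libraries of different lines, so these 4 ratios only show the range. Without both SLC7A2-line libraries numbered 2 the fitted log2 difference was 2.98.

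Within each group the library numbered 2 had the higher SLAMF8 level. The ratio of number 2 to number 1 in CPM was 2.13 and 2.27 in the SLC7A1 line without and with dox. It was 4.47 and 4.58 in the SLC7A2 line without and with dox. Tagged SLC7A2 was also higher in the SLC7A2-line libraries numbered 2 (values above); its part in the SLAMF8 level was not tested. In the SLC7A1 line the effective length that the authors' software assigned to SLAMF8 varied from 1641 to 2378 bases between libraries, against 2134 to 2240 bases in the SLC7A2 line, and this enters TPM but not CPM.

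**Figure D1:**
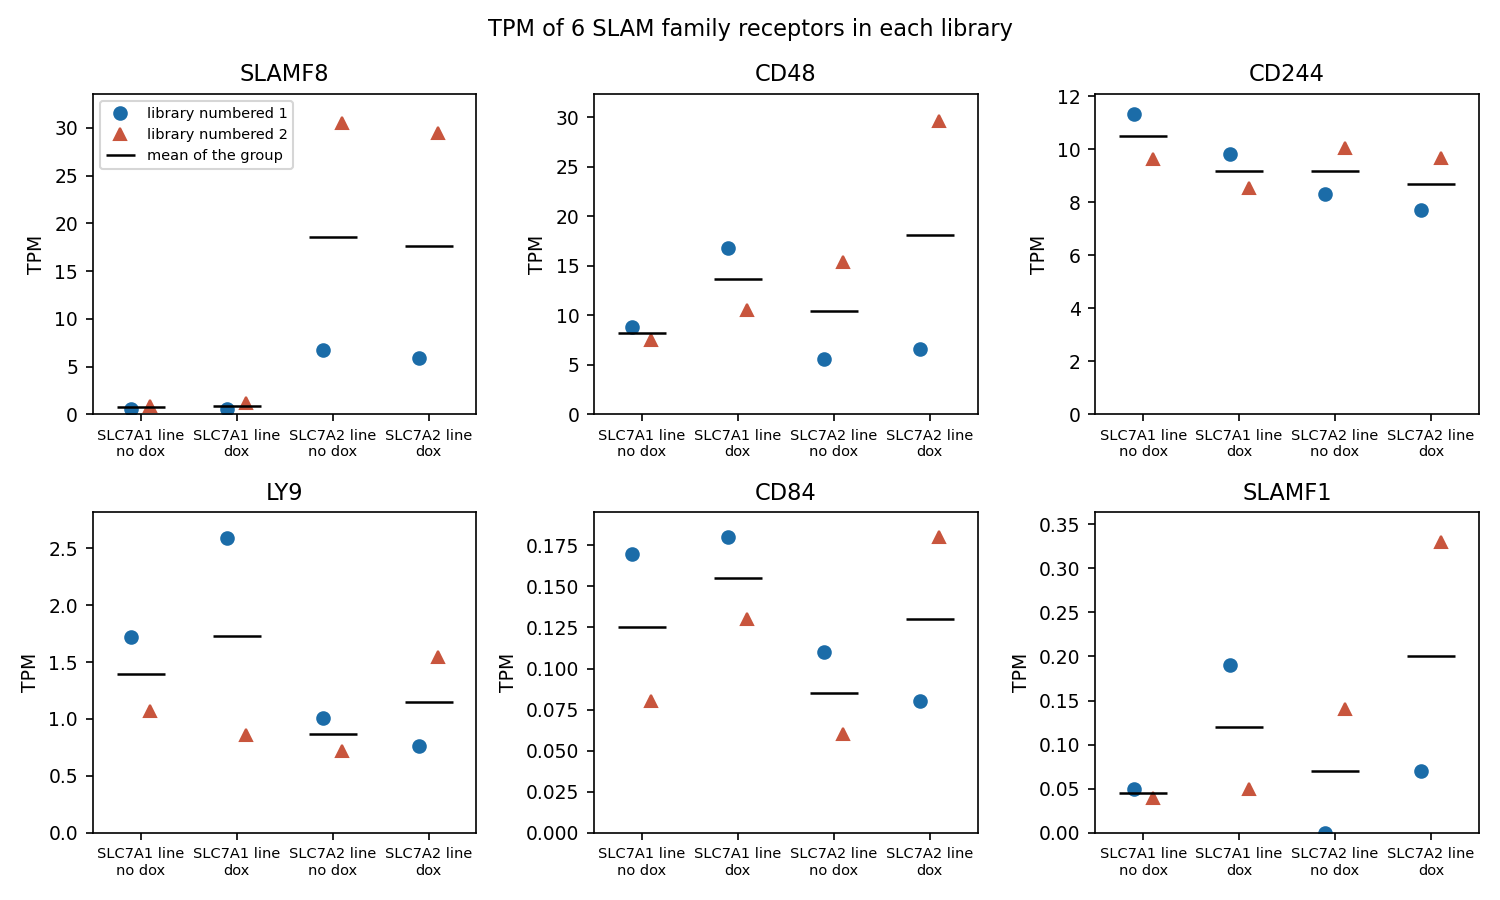
TPM of 6 SLAM family receptors in each library, 1 panel a gene with its own linear axis; circles are libraries numbered 1, triangles libraries numbered 2, bars group means of 2 libraries. SLAMF8 lies at 0.55 to 1.21 TPM in the SLC7A1 line and at 5.93 to 30.5 TPM in the SLC7A2 line, while CD244 stays between 7.71 and 11.4 TPM throughout.

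CD48, the lipid-anchored ligand of CD244, was expressed in every library but split the SLC7A2 line in the same places as SLAMF8. It stood at 8.82 and 7.54 TPM in the SLC7A1 line without dox and at 16.8 and 10.6 TPM with dox. In the SLC7A2 line it stood at 5.56 and 15.4 TPM without dox and at 6.59 and 29.7 TPM with dox. The line means were 10.95 ± 4.12 TPM and 14.3 ± 11.2 TPM (SD, n = 4 each), so the lines overlapped widely.

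The library number turned the CD48 line ratio around. Between libraries numbered 1, CD48 in the SLC7A2 line had 0.594-fold the CPM of the SLC7A1 line without dox and 0.385-fold with dox. Between libraries numbered 2 it had 1.98-fold and 2.53-fold. The ratio of number 2 to number 1 within a group was 0.799 and 0.636 in the SLC7A1 line, against 2.67 and 4.18 in the SLC7A2 line. CD48 therefore shared the height of the SLC7A2-line libraries numbered 2 with SLAMF8, but not the gap between the lines. Its fitted log2 line difference was 0.22 ± 0.44 (SE) with all 8 libraries and -0.85 without those 2.

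CD244, the receptor for CD48, which is best known from natural killer cells, was the steadiest member. It stood at 11.4 and 9.64 TPM in the SLC7A1 line without dox and at 9.84 and 8.53 TPM with dox. In the SLC7A2 line it stood at 8.31 and 10.0 TPM without dox and at 7.71 and 9.68 TPM with dox. The highest library had 1.47-fold the TPM of the lowest, against 5.34-fold for CD48 and 55.4-fold for SLAMF8. Its within-group SD was 0.17 on the log2 scale, against 0.87 for CD48 and 1.18 for SLAMF8, from 230.0 to 388 expected counts a library. The ligand and its receptor thus differed in how far they varied among the same libraries.

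LY9, a receptor that binds itself, was low. It stood at 1.72 and 1.07 TPM in the SLC7A1 line without dox and at 2.59 and 0.86 TPM with dox. In the SLC7A2 line it stood at 1.01 and 0.72 TPM without dox and at 0.76 and 1.54 TPM with dox. The line means were 1.56 ± 0.78 and 1.01 ± 0.38 TPM (SD, n = 4 each), with overlapping libraries, from 17.0 to 71.9 expected counts. Its highest library was the SLC7A1 line with dox numbered 1, in which SLAMF8 was low.

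CD84 and SLAMF1, which also bind themselves, were near the limit of what this depth shows. CD84 stood at 0.06 to 0.18 TPM, from 6.95 to 21.9 expected counts. SLAMF1, the founding member, stood at 0 to 0.33 TPM, with 0 counts in the SLC7A2 line without dox numbered 1 and 17.0 in the SLC7A2 line with dox numbered 2. Only 4 of the 8 libraries held more than 3 counts of SLAMF1. For both genes the lines overlapped.

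SLAMF6 and SLAMF7, the members best known from lymphocytes and plasma cells, were at the floor. SLAMF6 was at 0 in 6 of 8 libraries and summed to 1.69 expected counts over all 8. SLAMF7 was at 0 in 5 of 8 libraries and summed to 5 counts. No library held more than 3 counts of either, so neither passed the filter and no fold is given. SLAMF9, the second gene with a short tail, was listed with 1 count in a single library and was at 0 in the other 7, so its level was not detectable at this depth while SLAMF8 was.

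The order of the members differed between the lines. In the SLC7A1 line CD48 (10.95 TPM) and CD244 (9.84 TPM) led and overlapped, followed by LY9 (1.56 TPM) and SLAMF8 (0.81 TPM), which overlapped with each other and lay below both. CD84 (0.14 TPM) and SLAMF1 (0.08 TPM) overlapped at the end. In the SLC7A2 line SLAMF8 (18.1 TPM), CD48 (14.3 TPM) and CD244 (8.94 TPM) overlapped at the top. LY9 (1.01 TPM) came below all 3 without overlap, and CD84 (0.11 TPM) and SLAMF1 (0.14 TPM) again overlapped.

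The summed level of the 8 receptors was 19.4 to 30.3 TPM in the SLC7A1 line. In the SLC7A2 line it was 21.7 TPM without dox and 21.2 TPM with dox in the libraries numbered 1, and 56.8 and 70.8 TPM in those numbered 2. SLAMF8 made up 1.82% to 5.67% of this sum in the SLC7A1 line, against 31.0% and 27.9% in the SLC7A2-line libraries numbered 1 and 53.7% and 41.5% in those numbered 2. In those libraries CD244 made up 38.3% and 36.3%, and 17.7% and 13.7%. In the SLC7A2-line libraries numbered 1 the family sum was thus within the range of the SLC7A1 line while its makeup was not.

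**Figure D2:**
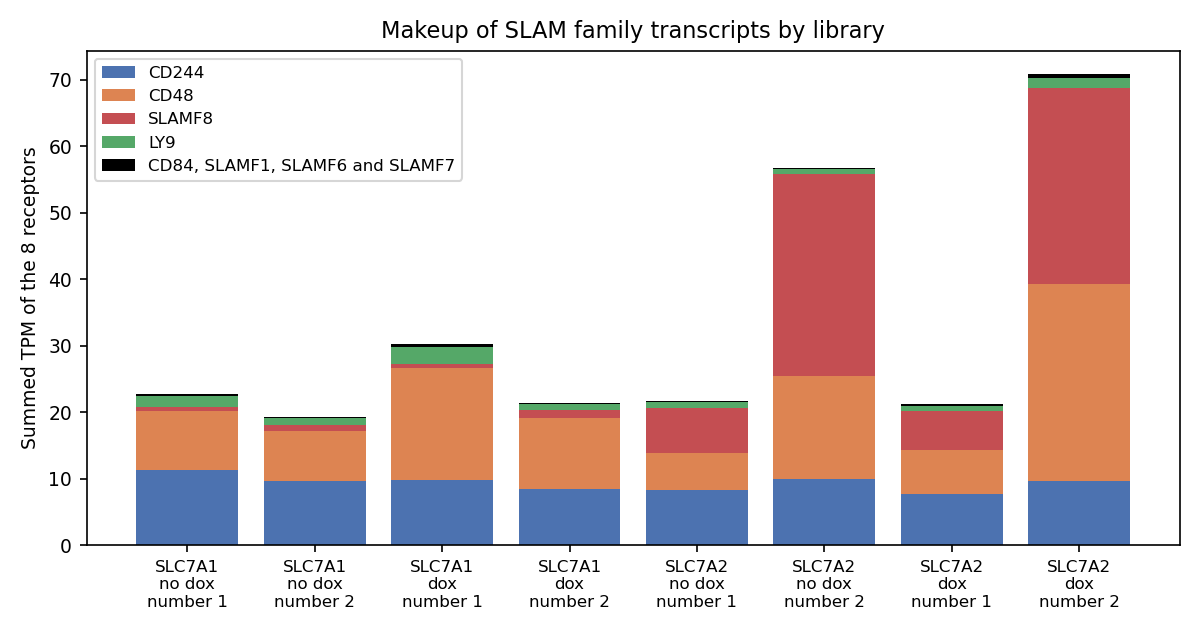
Summed TPM of the 8 SLAM family receptors in each of the 8 libraries, stacked by gene, with CD84, SLAMF1, SLAMF6 and SLAMF7 drawn as 1 class. The SLAMF8 layer is at most 1.21 TPM in the SLC7A1 line and 5.93 to 30.5 TPM in the SLC7A2 line, and the 2 tallest columns are the SLC7A2-line libraries numbered 2, at 56.8 and 70.8 TPM.

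The comparison with and without dox did not enter the choice of members and could be tested. It asked whether inducing either transporter came with a change in these receptors. Of the 8 members 6 passed the filter (SLAMF8, CD48, CD244, LY9, CD84 and SLAMF1). Across both lines, with 4 libraries in each arm, 0 of the 6 passed an adjusted p of 0.05 in the quasi-likelihood test of edgeR, where 0% of all 17503 tested entries did. At an unadjusted p under 0.05 the count was again 0 of 6, against 261 entries, or 1.49%. These counts, like those below, come from the fit that does not use the pairs. In edgeR with libraries of the same line and number as a block, 1020 entries had an unadjusted p under 0.05. Unadjusted p values of the members with the block are not given here, so 0 of 6 does not extend to that fit. DESeq2 called 1 entry in this comparison and edgeR with a replicate block 3, all constructs or an unnamed locus and no member. Tagged SLC7A1 and tagged SLC7A2, both induced by dox, were tested too. Neither passed in any dox comparison of the main edgeR fit, which used the filter, all 8 libraries and no block. Without the filter, tagged SLC7A1 passed across both lines and in the SLC7A1 line. Counts of 0 called in the main fit, here and below, therefore do not show that levels were unchanged.

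CD48, the ligand, had a positive fitted value with dox. Its CPM with dox was 1.84-fold and 1.46-fold that without in the SLC7A1 line, and 1.19-fold and 1.87-fold in the SLC7A2 line, taking libraries of the same line and number as pairs. It was higher in 4 of 4 pairs, and the groups did not overlap in the SLC7A1 line but did in the SLC7A2 line. The shares of all tested entries with such pairs or groups were not counted. Nothing is therefore read from counts of pairs or from overlap, here and in the dox comparisons below. The fitted log2 change was 0.71 ± 0.44 (SE) and did not pass (edgeR, unadjusted p = 0.143, adjusted p = 0.9999). Without the SLC7A2-line library with dox numbered 2 alone it was 0.23, and with the other libraries left out singly it was at most 1.03.

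CD244 was lower with dox in 4 of 4 pairs, at 0.815-fold and 0.904-fold in the SLC7A1 line and 0.898-fold and 0.952-fold in the SLC7A2 line. The fitted log2 change was -0.19 ± 0.13 (SE) and did not pass either (edgeR, unadjusted p = 0.175, adjusted p = 0.9999). With libraries of the same line and number as a block the values were 0.64 ± 0.14 for CD48 and -0.19 ± 0.08 for CD244 (SE). The block narrowed both SEs, and neither gene passed (edgeR, adjusted p = 0.832 and 0.837). The fitted values of ligand and receptor had opposite signs, and neither passed the adjusted threshold with or without the block.

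SLAMF8 showed little difference with dox beside its spread. In CPM the pairs gave 1.119-fold and 1.196-fold in the SLC7A1 line and 0.861-fold and 0.882-fold in the SLC7A2 line. In TPM the SLC7A1 pair numbered 1 went the other way, from 0.58 to 0.55. The fitted log2 change across both lines was -0.06 ± 0.62 (SE; edgeR, unadjusted p = 0.919, adjusted p = 0.9999). With libraries of the same line and number as a block the value was -0.11 ± 0.12 (SE) and did not pass either. The sign of the unblocked value was positive, 0.052, without both SLC7A2-line libraries numbered 2.

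The low members gave wide intervals. The fitted log2 changes across both lines were 0.36 ± 0.39 for LY9, 0.42 ± 0.49 for CD84 and 1.43 ± 0.94 for SLAMF1 (SE; edgeR, adjusted p = 0.9999 each). LY9 was higher with dox in 2 of 4 pairs and CD84 in 3 of 4. SLAMF1 was higher in all 3 pairs that could be formed, the fourth having 0 counts without dox. The SLC7A1 pair numbered 2 went from 2.34 to 2.91 counts, under the floor of 3 counts. SLAMF1 reached the filter's 10 counts only with dox, at 10.2 in the SLC7A1 line numbered 1 and 17.0 in the SLC7A2 line numbered 2. Its positive values, here and in the medians below, are therefore partly fixed by the filter. Without both SLC7A2-line libraries numbered 2 the value was 0.13 for LY9 and 0.06 for CD84. Of the 6 fitted values 4 were positive, with a median of 0.39, against a median of 0.01 over all tested entries, of which 51.7% were positive.

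Within the SLC7A1 line, 2 libraries against 2, 0 of 6 members passed the adjusted threshold where 0% of all entries did, and 0 of 6 reached an unadjusted p under 0.05, where 222 entries, or 1.27%, did. DESeq2 called 9 entries there, and edgeR with a replicate block 2, none of them a member. The log2 changes were 0.23 ± 1.052 for SLAMF8, 0.72 ± 0.67 for CD48, -0.24 ± 0.20 for CD244, 0.30 ± 0.59 for LY9, 0.32 ± 0.75 for CD84 and 1.33 ± 1.46 for SLAMF1 (SE). Their median was 0.31, against -0.003 over all entries.

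Within the SLC7A2 line, 0 of 6 members passed the adjusted threshold where 0% of all entries did, and 0 of 6 the unadjusted one, where 224 entries, or 1.28%, did. DESeq2 called 10 entries there, and edgeR with a replicate block 1, again without a member. The log2 changes were -0.23 ± 0.82 for SLAMF8, 0.70 ± 0.66 for CD48, -0.15 ± 0.20 for CD244, 0.43 ± 0.61 for LY9, 0.52 ± 0.76 for CD84 and 1.52 ± 1.399 for SLAMF1 (SE). Their median was 0.47, against 0.01 over all entries. Without both libraries numbered 2 the LY9 value was -0.24, the CD84 value -0.50, the CD48 value 0.24 and the SLAMF1 value 5.08, the last with 0 counts in its only library without dox, so that its size depends on the fit and is no bound.

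The dox effects of the 2 lines were set against each other in the same fit. For the difference, SLC7A2 line minus SLC7A1 line, 0 of 6 members passed the adjusted threshold of edgeR where 0% of all entries did, and 0 of 6 the unadjusted one, where 222 entries, or 1.27%, did; DESeq2 called 20 entries and no member. The values were -0.46 ± 1.34 for SLAMF8, -0.03 ± 0.93 for CD48, 0.10 ± 0.29 for CD244, 0.13 ± 0.85 for LY9, 0.20 ± 1.06 for CD84 and 0.19 ± 2.18 for SLAMF1 (SE). CD244 alone had an SE under 0.5 here. With the replicate block the SE was also under 0.5 for SLAMF8 (-0.46 ± 0.21) and CD48 (-0.14 ± 0.30), and no member passed. Without both SLC7A2-line libraries numbered 2 the differences were 3.75 for SLAMF1, -0.48 for CD48, -0.82 for CD84 and -0.53 for LY9.

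**Figure D3:**
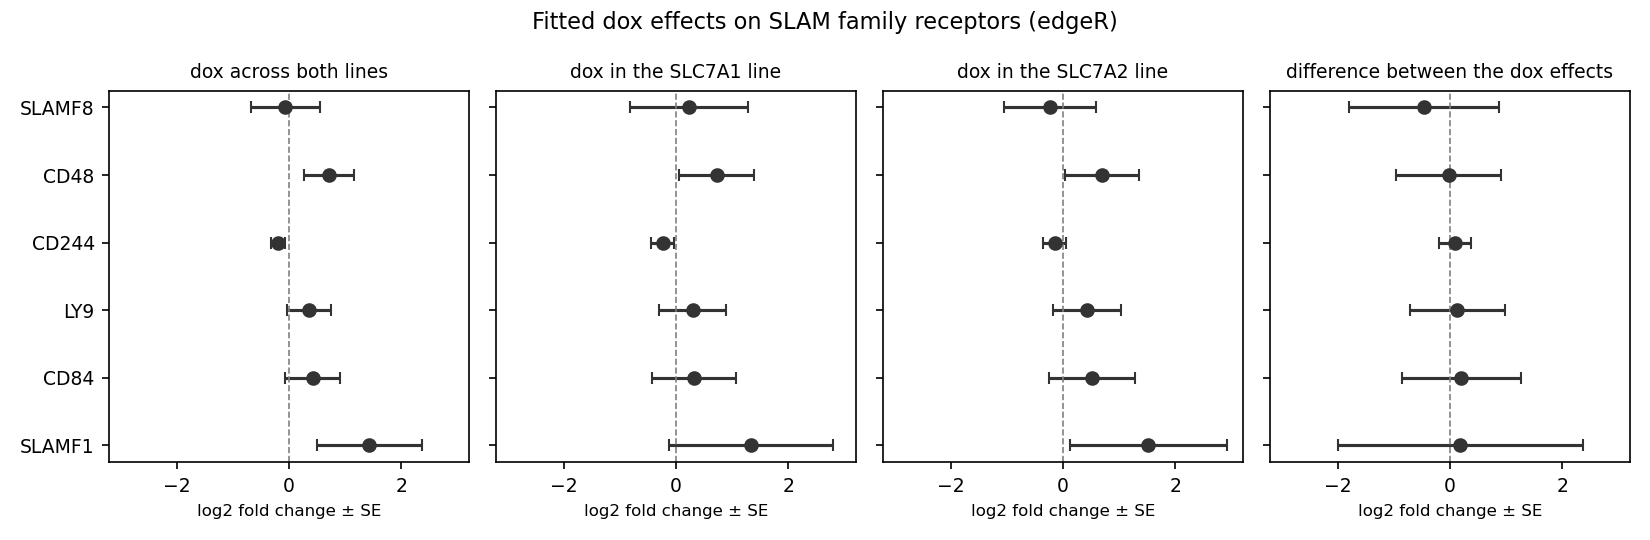
Fitted log2 fold changes (points) with SE (bars) of the 6 members that passed the filter, 1 panel for dox across both lines, for dox in each line and for the difference between the lines (edgeR). CD244 has the shortest bars, with SE 0.13 across both lines, SLAMF1 the longest, with SE 0.94, and no member passed the threshold in any panel.

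Between the lines, the other 5 tested members did not share the SLAMF8 gap. The fitted log2 values, SLC7A2 line minus SLC7A1 line, were 0.22 ± 0.44 for CD48, -0.28 ± 0.13 for CD244, -0.92 ± 0.40 for LY9, -0.51 ± 0.49 for CD84 and 0.51 ± 0.93 for SLAMF1 (SE), beside 4.38 for SLAMF8. Without both SLC7A2-line libraries numbered 2 the SLAMF1 value was -1.38, the opposite direction. The libraries of SLAMF8 alone did not overlap between the lines, that is 1 of 6; in CPM 1814 of all 17503 tested entries, or 10.4%, did not overlap either. In this comparison 0% of all entries passed the adjusted threshold of edgeR and 2242 entries, or 12.8%, the unadjusted one; DESeq2 called 349. The members were chosen on this contrast, so nothing is read from that count.

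The genes around SLAMF8 were followed to see whether its neighbourhood differed as well. The interval from SLAMF8 to the end of CD244 spans 1036 kb and holds 54 genes of the reference. Of these, 46 are not among the 8 members, SLAMF9 included. Of these 46, 9 passed the filter: CFAP45, TAGLN2, PIGM, IGSF8, PEA15, DCAF8, PEX19, COPA and NCSTN. Their log2 line differences ran from -0.30 for NCSTN, a subunit of gamma-secretase, to 0.37 for PEA15, a small phosphoprotein, with a median of 0.01. TAGLN2, an actin-binding protein with a mean of 772 TPM and the second nearest tested gene, had 0.10. With dox across both lines the 9 genes ran from -0.16 to 0.35 with 0 called.

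**Figure D4:**
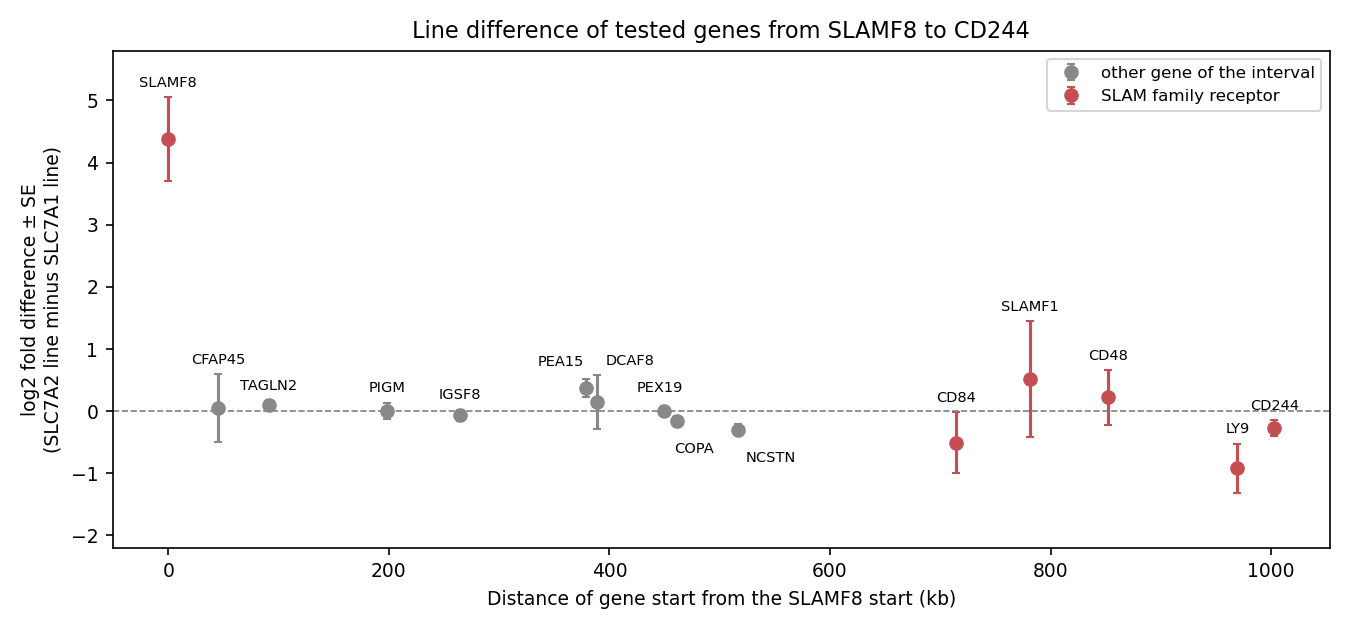
Log2 difference between the lines (SLC7A2 line minus SLC7A1 line, points) with SE (bars) for the tested genes of the interval, against the distance of the gene start from the SLAMF8 start in kb; red marks SLAM family receptors, grey the other genes. SLAMF8 lies at 4.38 and the 9 other genes between -0.30 and 0.37.

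The genes whose profiles over the 8 libraries lay closest to that of SLAMF8 were found by the root mean square difference of log2 CPM after each gene was centred on its own mean. Among 10312 genes with a symbol and a mean log2 CPM of at least 1, they were ACTL8 (0.81), KRT81 (0.95), POU2F2 (1.03), KRT86 (1.13) and GPR84 (1.15), where the median gene had 2.18. ACTL8 encodes an actin-like protein, KRT81 and KRT86 hair keratins, POU2F2 the transcription factor Oct-2, and GPR84 a fatty acid receptor of myeloid cells. KRT81 and KRT86 are closely similar copies, so the split of reads between them is uncertain. Among members, CD48 (2.12) ranked 3723 and CD244 (2.31) ranked 8193.

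In these genes too the SLC7A2-line libraries numbered 2 were the highest, while the gap between the lines varied. ACTL8 stood at 1.29 to 2.90 TPM in the SLC7A1 line, at 6.10 and 4.80 TPM in the SLC7A2-line libraries numbered 1, and at 33.3 and 30.0 TPM in those numbered 2. GPR84 stood at 1.00 to 2.60 TPM, then 2.69 and 2.46 TPM, then 28.0 and 13.2 TPM, so its lines overlapped. POU2F2 stood at 0.15 to 0.29 TPM, then 0.87 and 1.10 TPM, then 1.96 and 2.10 TPM, a line gap with a smaller step between numbers. The profiles were ranked by likeness to SLAMF8, so their agreement with it is built in.

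**Figure D5:**
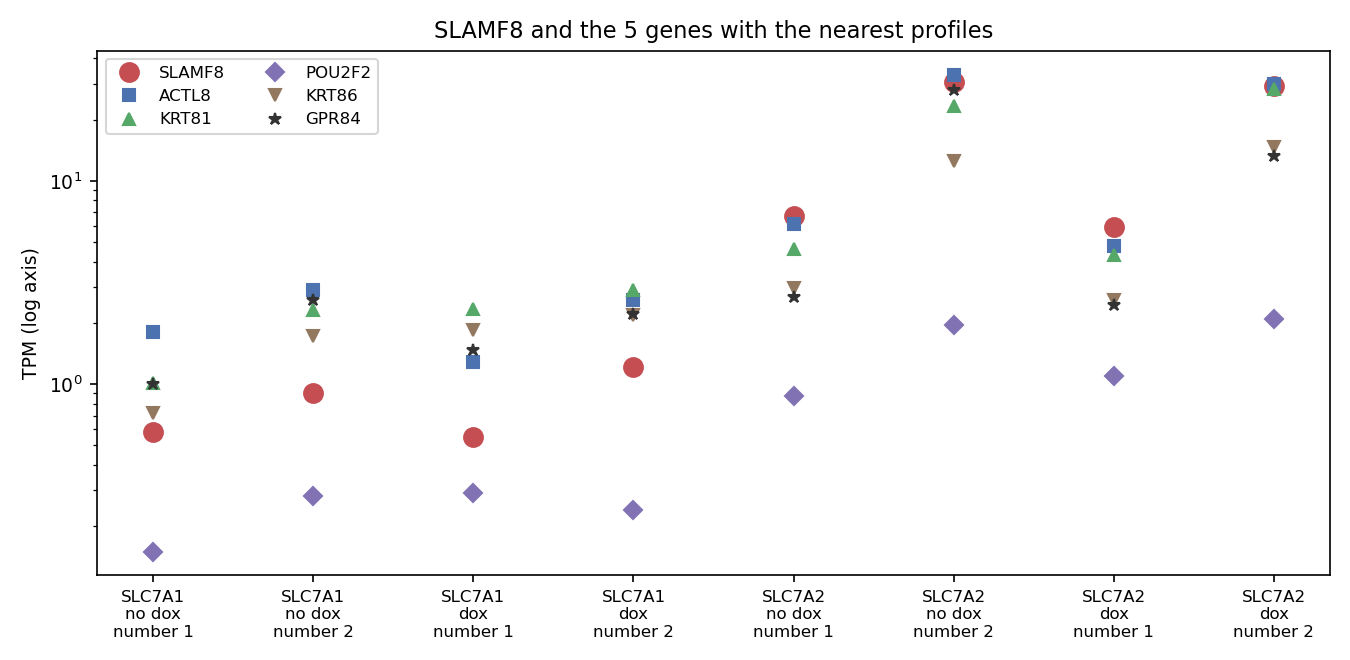
TPM on a log axis of SLAMF8 and the 5 genes with the nearest profiles in each of the 8 libraries. For SLAMF8 and ACTL8 the 4 SLC7A2-line libraries lie above all SLC7A1-line libraries, and the highest values, 30.5 and 33.3 TPM, are in the SLC7A2-line library without dox numbered 2.

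The partners of the receptors were read from fixed lists. Of 16 adaptor and proximal signalling genes, 14 passed the filter. The adaptors themselves were at the floor: SH2D1B, which encodes EAT-2, was at 0 in all 8 libraries, and SH2D1A, which encodes SAP, reached at most 0.04 TPM. CSK, a kinase that restrains Src kinases, stood at 199.7 to 227 TPM, and PTPN6, which encodes SHP-1, at 143 to 186 TPM. The phosphatase that binds the receptors' motifs was thus abundant in these cells and the SAP adaptors were not detectable at this depth. With dox across both lines 0 of 14 rose and 0 fell by the adjusted threshold (edgeR); 9 values were positive and 5 negative, with a median of 0.02. CSK had 0.04 ± 0.08 and PTPN6 0.01 ± 0.11 (SE).

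Genes of the NADPH oxidase and the VPS34 complex, which SLAMF8 and SLAMF1 are known to affect, were all tested (10 of 10). CYBA, the small subunit of the oxidase's membrane core, stood at 802 to 939 TPM, and RAC2, its GTPase, at 264.5 to 367 TPM, while CYBB, the large subunit, had a mean of 0.30 TPM. With dox across both lines 0 of 10 passed; 8 values were positive and 2 negative, with a median of 0.02. CYBA had 0.01 ± 0.11 and RAC2 0.06 ± 0.08 (SE). Their line values had a median of 0.05, against 4.38 for SLAMF8.

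SLAMF8 is known as an interferon gamma response gene of macrophages, so that response and macrophage maturation were read too. Of 21 interferon gamma target genes 13 passed the filter and 0 of 13 were called with dox across both lines, with 7 values positive and 6 negative. PSMB8, an immunoproteasome subunit, stood at 366 to 419 TPM. CD74, the MHC class II chaperone, stood at 85.5 to 107 TPM in the SLC7A1 line, at 62.7 and 67.5 TPM in the SLC7A2-line libraries numbered 1, and at 23.7 and 28.7 TPM in those numbered 2. The libraries with the most SLAMF8 had the least CD74. Between the lines 4 of the 13 values were positive and 9 negative, with a median of -0.15. Over all tested entries the median was -0.004, and 49.5% were positive.

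Of 20 macrophage maturation genes 10 passed and 0 of 10 were called with dox across both lines; MRC1, MSR1, FCGR3A, C1QB and C1QC were at 0. CD68, a lysosomal marker of macrophages, stood at 50.7 to 69.8 TPM and FCGR2A, an Fc receptor, at 15.5 to 25.3 TPM. Between the lines all 10 fitted values were negative, with a median of -0.45, while that of SLAMF8 was positive. Over all tested entries the median was -0.004, and 49.5% were positive. The values ranged in certainty, with -0.37 ± 0.09 for CD68, -0.14 ± 0.16 for MERTK and -1.62 ± 0.99 for CSF1R (SE). A link between these values and SLAMF8 was not tested.

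Of 17 other adhesion receptors of the CD2 and immunoglobulin type 13 passed and 0 of 13 were called with dox across both lines, with 5 values positive and 8 negative. CD33, a myeloid lectin, stood at 81.1 to 94.3 TPM, and SIRPA, the receptor of CD47, at 47.8 to 93.4 TPM with its 2 highest values in the SLC7A2-line libraries numbered 2. CD2 itself reached at most 0.21 TPM. Of the lists read, none had a member called by edgeR in any dox comparison. Fewer expressing cells and less RNA per cell cannot be told apart in these bulk libraries, for SLAMF8 as for the others.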

How the data were processed

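Poly(A) RNA was sequenced from 8 libraries in 4 groups of 2, with groups and numbers taken from the sample titles. Per the file headers, the authors deposited for each entry an RSEM expected count, FPKM, TPM, the gene length and the effective length; the deposited FPKM and gene lengths were not used. Per the submitters' processing notes, the build hg38 and the tools RSEM 1.3.1, HISAT, DESeq2 1.4.5 and Bowtie2 2.3.4.3 were involved, in roles the notes leave unnamed. Strand use in counting was not given in the sources used here; genes that overlap or lie antisense are therefore uncertain. A gene not listed for a library was taken as 0. Entrez numbers were matched to symbols through RefSeq: 15340 of 15386 matched.

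Expected counts were rounded, filtered with filterByExpr (minimum count 10, minimum total 15; 17503 entries left), and scaled with TMM factors. Each comparison was tested in edgeR 4.0.16 (R 4.3.3) with its quasi-likelihood F test, adjusted by Benjamini-Hochberg over all tested entries at 0.05. Dox across both lines and the line difference came from an additive fit of line and dox, the others from 1 fit of the 4 group means, so the comparisons share libraries. The SE was obtained from the F statistic (size of the log2 change divided by the root of F). The code was tested on simulated counts. Alternatives were DESeq2 1.42.0, RLE scaling, no filter, the XLOC loci and constructs left out, limma 3.58.1 on log2(TPM + 1), a replicate block, and each library left out.

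Libraries of 1 line with the same number deviated together (correlation over 14226 genes 0.33 in the SLC7A1 line and 0.48 in the SLC7A2 line), so numbers were used as pairs within a line. Replicates differed by more than sampling noise (chi-square per gene 20.6 to 45.6). Named genes were the 8 members, SLAMF9, the called members of each list or else the 2 with the highest mean TPM, the 5 nearest profiles, and the genes of the interval. SH2D1A, SH2D1B, CYBB, CD2, MPO, IL7R and the listed markers at 0 or above 1 TPM were added after their values were seen. The members and lists were chosen with earlier results of these data known.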

Additional observations from a re-analysis of the deposited data

Results flagged for a closer look

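The SLAMF8 level was higher with dox in both pairs of the SLC7A1 line (1.119-fold and 1.196-fold in CPM) and lower with dox in both pairs of the SLC7A2 line (0.861-fold and 0.882-fold). This opposite movement in CPM singled the result out. It does not hold in TPM, where the SLC7A1 pair numbered 1 went from 0.58 without dox to 0.55 with dox. The fitted difference between the dox effects, SLC7A2 line minus SLC7A1 line, was -0.46 ± 1.34 (SE, log2 scale) and did not pass the test of the difference itself (edgeR, unadjusted p = 0.739, adjusted p = 1). With a replicate block it was -0.46 ± 0.21 and did not pass either.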

How the results depend on the processing

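The counts of called entries, 0 in each edgeR comparison, moved as follows. Dox across both lines gave 1 with DESeq2, 2 without the filter, 3 with a replicate block and 1 without both SLC7A2-line libraries numbered 2, an alternative chosen after seeing the data. Dox in the SLC7A1 line gave 9 with DESeq2 and 2 each without the filter, with limma and with the block. Dox in the SLC7A2 line gave 10 with DESeq2, 2 with limma (H4C12 and an XLOC locus), 1 with the block and 0 to 1 with single libraries left out (CEP350 without the dox library numbered 2, an XLOC locus without the no-dox library numbered 2). The difference between the dox effects gave 20 with DESeq2 and 3 with limma. The line comparison gave 349 with DESeq2 (171 higher, 178 lower), 3 without the filter, 256 with the block (106 higher, 150 lower), 1 without both libraries numbered 2 and 0 to 1 with single libraries left out. Libraries of different lines share only a number (correlations 0.002 to 0.23). The cause of these shifts was not tested.

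Of 360 alternative values of the members' dox results 0 passed (lowest adjusted p 0.809); 321 kept their direction and 39 reversed. The block changed no member's call. Without both SLC7A2-line libraries numbered 2 the reversed values were 0.052 for SLAMF8 across both lines, -0.50 for CD84 and -0.24 for LY9 in the SLC7A2 line, and -0.82 for CD84 and -0.53 for LY9 in the difference. With single libraries left out (a lone sample is then assumed to vary like the other groups), SLAMF8 ran from -0.68 to 0.69 across both lines, -0.52 to 0.88 in the SLC7A1 line, -1.64 to 1.18 in the SLC7A2 line and -1.86 to 0.95 in the difference. CD84 ran from -0.19 to 1.11, -0.090 to 1.08 and -0.59 to 0.76 in the latter 3 comparisons. LY9 ran from -0.57 to 0.83 in the SLC7A1 line and -0.41 to 0.99 in the difference. CD48 ran from -0.60 to 1.54 in the SLC7A2 line and -1.32 to 0.82 in the difference, SLAMF1 from -1.04 to 5.00 and CD244 from -0.11 to 0.28 in the difference. The SLAMF8 line value ran from 3.78 to 4.72 with single libraries left out and was 3.07 with limma, whose pseudocount of 1 shrinks low levels. Depth limits CD84, SLAMF1, SLAMF6 and SLAMF7.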

Other observations

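Several myeloid genes outside the rule for named genes were picked after their values were seen. FCGR1A, the high-affinity Fc receptor and an interferon gamma target, stood at 10.4 to 15.5 TPM in the SLC7A1 line and at 5.17 to 6.93 TPM in the SLC7A2 line, a line gap without overlap in the direction opposite to that of SLAMF8. In CPM 1814 of all 17503 tested entries, or 10.4%, did not overlap between the lines either. MARCO, a scavenger receptor of macrophages, stood at 4.66 to 8.20 TPM in the SLC7A1 line, at 4.10 and 4.31 TPM in the SLC7A2-line libraries numbered 1 and at 1.70 and 1.81 TPM in those numbered 2. IRF8, a transcription factor of the monocyte lineage, stood at 21.2 to 31.5 TPM in the SLC7A1 line, at 26.7 and 24.9 TPM in the SLC7A2-line libraries numbered 1 and at 5.87 and 7.35 TPM in those numbered 2, so it set those 2 libraries apart without a line gap.

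NCF1, the p47 subunit of the phagocyte oxidase, stood at 1.14 to 3.06 TPM in the SLC7A1 line, at 4.04 and 3.80 TPM in the SLC7A2-line libraries numbered 1 and at 8.06 and 8.91 TPM in those numbered 2; near-identical pseudogenes make its level uncertain. The summed level of 7 fibroblast markers was 14.9 TPM in the SLC7A2-line library without dox numbered 2 and 0.72 to 2.11 TPM in the other 7. SLAMF8 was highest in that same library, at 30.5 TPM. In the SLC7A2-line library with dox numbered 2 SLAMF8 stood at 29.4 TPM and the fibroblast sum at no more than 1.51 TPM. A link between these markers and SLAMF8 was not tested.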
